A study of Mus musculus with 53 samples.

Results

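Nodes of Ranvier and the paranodes beside them are built by a small set of adhesion and cytoskeletal genes, and 8 of these were followed here across the brain of SCA3 mice: Nfasc, Cntn1, Cntn2, Cntnap1, Cntnap2, Ank2, Ank3 and Sptbn4. They were chosen by name, and all 8 were present among the 12372 genes of the deposited count table. The wild-type mice were C57BL/6 males, and the SCA3 mice were males of the MJD84.2 line, which carry in hemizygous form the human ATXN3 gene, its CAG repeat expanded, under its own promoter, so the transgene was not limited to a cell type and the mouse Atxn3 gene was intact in both groups. Brains were taken from 8 wild-type and 6 SCA3 mice at 74 to 77 weeks of age, after behavioural testing, and poly-A RNA of dissected brainstem (8 wild-type and 6 SCA3 libraries), cerebellum (7 and 6), cortex (7 and 6) and striatum (8 and 5) was sequenced, giving 53 libraries with 1 library per mouse and region.

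In myelinated axons, voltage-gated sodium channels are gathered at the node, where the cytoskeletal adaptor ankyrin-G and βIV spectrin hold them together with the neuronal form of neurofascin. On either side, at the paranode, contactin and its partner Caspr on the axon bind the glial form of neurofascin on the myelin loops, and further out, at the juxtaparanode, a second contactin and Caspr2 hold Shaker-type potassium channels in place. The same ankyrin-G and βIV spectrin scaffold builds the axon initial segment. Nfasc encodes both the neuronal and the glial neurofascin, which a count per gene cannot separate. Cntn1 encodes the paranodal contactin, Cntn2 the juxtaparanodal contactin that is made by both neurons and oligodendrocytes, Cntnap1 encodes Caspr, Cntnap2 encodes Caspr2, Ank2 encodes ankyrin-B of the paranode and distal axon, Ank3 encodes ankyrin-G and Sptbn4 encodes βIV spectrin.

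The 8 genes lie on 7 chromosomes of the mouse genome (build GRCm38, RefSeq coordinates). Nfasc (chr1:132564690-132741848) and Cntn2 (chr1:132509425-132543251) lie on the minus strand of the same chromosome with 21438 bases between them. Cntn1 lies at chr15:92051152-92341967, Cntnap1 at chr11:101174617-101190724, Cntnap2 at chr6:45060061-47301393, Ank2 at chr3:126921607-127500347, Ank3 at chr10:69533486-70027436 and Sptbn4 at chr7:27356383-27447704. They differ in base composition. The longest annotated transcript of Sptbn4 has a GC content of 63.7%, higher than 99.4% of the genes in the table, whereas Cntn1 has 43.6% and the median gene has 49.8%. Cntnap1 shares 233 exonic bases with Plekhh3 on the opposite strand, and the counting did not use strand, so reads there could not be told apart by strand.

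Sequence just upstream of a RefSeq start (GRCm38.p6) is shown for the pair of members whose levels rose and fell together most closely from library to library (Nfasc and Cntn2) and for the pair that went most strongly in opposite directions (Cntn1 and Sptbn4), as given further on. Each line runs 5′ to 3′ in the direction of the gene and is the longest stretch without an annotated exon of the gene within the 250 bases before the start. Where several starts were listed for a gene, the most upstream of them is shown. Capitals mark the letters GGGCGG, searched on both strands.
Nfasc (chr1:132707407-132707576, minus strand): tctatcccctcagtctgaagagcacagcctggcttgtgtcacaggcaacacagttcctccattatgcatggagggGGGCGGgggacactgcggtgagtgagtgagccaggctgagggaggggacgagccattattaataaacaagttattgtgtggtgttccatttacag
Cntn2 (chr1:132542941-132543028, minus strand): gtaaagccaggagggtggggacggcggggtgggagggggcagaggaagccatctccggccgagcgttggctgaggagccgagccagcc
Cntn1 (chr15:92050915-92051164, plus strand): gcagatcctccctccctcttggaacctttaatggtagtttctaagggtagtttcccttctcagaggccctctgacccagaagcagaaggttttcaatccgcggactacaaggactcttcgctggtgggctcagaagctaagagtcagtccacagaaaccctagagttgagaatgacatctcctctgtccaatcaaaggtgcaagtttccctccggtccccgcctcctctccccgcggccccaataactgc
Sptbn4 (chr7:27446600-27446839, minus strand): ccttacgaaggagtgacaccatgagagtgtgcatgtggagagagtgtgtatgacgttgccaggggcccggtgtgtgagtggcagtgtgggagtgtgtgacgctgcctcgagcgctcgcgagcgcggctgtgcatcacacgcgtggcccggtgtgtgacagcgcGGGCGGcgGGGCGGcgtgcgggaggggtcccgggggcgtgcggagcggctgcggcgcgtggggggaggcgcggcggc
Over the full 250 bases, the Sptbn4 window shown had a GC content of 72.0% and held GGGCGG at 2 places, and the Nfasc window had 52.0% and held it at 1. The Cntn2 (61.2%) and Cntn1 (53.6%) windows did not hold these letters. Windows at other starts differed, with 48.4% to 75.2% and 1 to 4 places for Sptbn4, 50.4% and 0 places for Nfasc, and 32.8% and 43.6% for Cntn1. The Nfasc, Cntn2 and Sptbn4 windows shown lay within the gene's own span, and the Nfasc stretch ends at an annotated exon. Whether these windows act as promoters was not tested. Of all 32851 RefSeq windows of the same length, 32.7% held GGGCGG, and their median GC content was 52.4%. RefSeq windows were found for 6 of the 8 members, with 16 starts in all. For Cntnap1 and Ank3 none was printed.

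The libraries held between 31.7 and 76.7 M counts (M for mega), and a member between 2859 (Cntnap2, in a wild-type cerebellum library) and 64128 counts (Ank2, in a wild-type brainstem library), so counting error was small beside the spread between mice. Cerebellum markers followed the dissection: their summed level was 4750 to 6940 CPM (counts per M counts of the library, scaled by TMM) in cerebellum and at most 495 CPM elsewhere. Cortex and striatum were not separated as clearly. Over both genotypes, striatal projection neuron markers summed to 762 to 4040 CPM in cortex and 2170 to 9570 CPM in striatum. Cortical glutamatergic neuron markers summed to 804 to 3150 CPM in cortex and 257 to 1320 CPM in striatum. In 3 wild-type striatum libraries (mice 7267058, 7267059 and 9083373), however, the 11 detected thalamus markers summed to 1790, 2790 and 589 CPM, against 187 to 456 CPM in the other striatum libraries of either genotype. Wild-type brainstem RNA was also of lower integrity, with RNA integrity numbers (RIN) of 6.3 to 7.6 against 7.4 to 8 in SCA3 brainstem. Mouse Atxn3 did not separate the genotypes in brainstem, cerebellum or cortex, and in striatum it was 40.1 to 53.7 CPM in wild-type and 54.3 to 64.8 CPM in SCA3 libraries. Reads of the human transgene were not counted apart from it.

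To see how the junction genes are distributed over the brain, the 4 regions of wild-type mice were compared first. Within a pair of regions, a difference was called at a false discovery rate (FDR) below 0.05 in edgeR's likelihood ratio test. Between 3 and 6 of the 8 members were called in each pair, but most genes differ between brain regions. Of all genes, 72.6% were called between brainstem and cerebellum (5 members), 65.4% between brainstem and cortex (6 members), 64.2% between brainstem and striatum (5 members), 69.7% between cerebellum and cortex (3 members), 69.5% between cerebellum and striatum (5 members) and 34.4% between cortex and striatum (3 members). These counts are to be read against that background. Levels below are CPM, and since tissue pieces were sequenced, more cells of a type and more RNA per cell cannot be told apart.

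**Figure D1:**
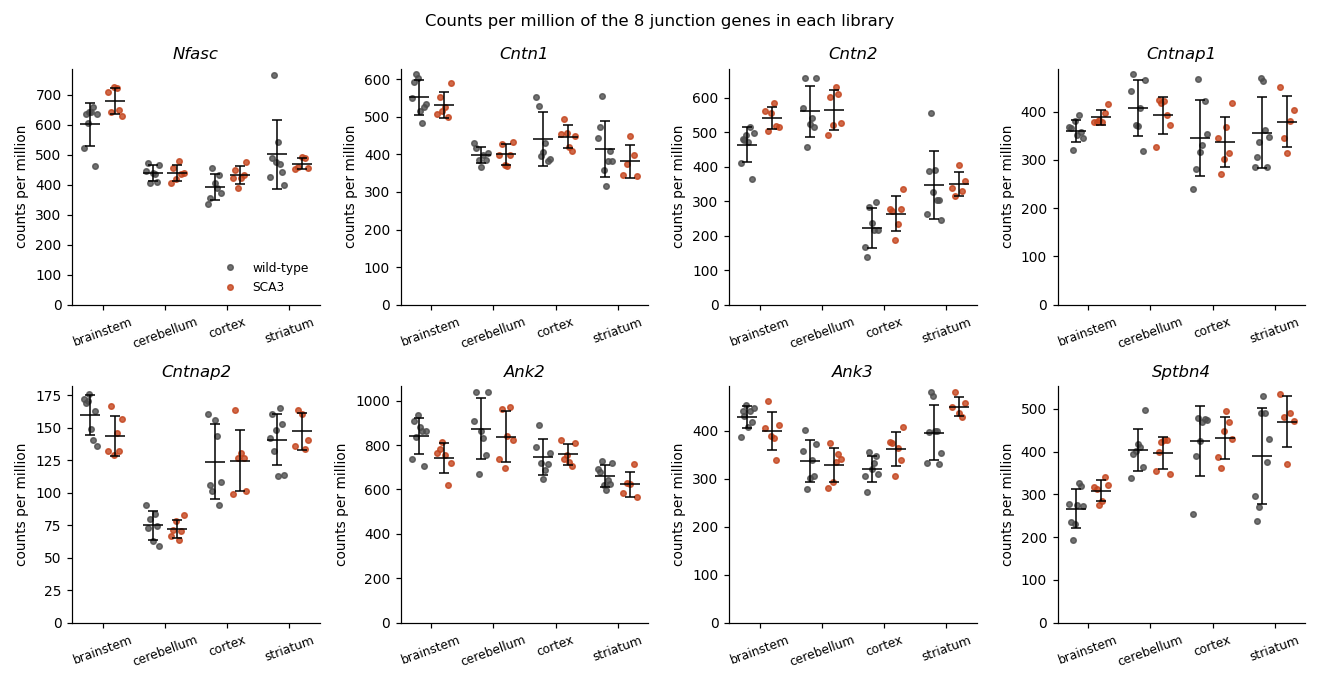
CPM (y axis, from 0) of each of the 8 junction genes in the 53 libraries, by brain region (x axis), with wild-type mice in grey and SCA3 mice in red; black bars give the mean and SD of each group. Cntn2 was lowest in cortex and Cntnap2 lowest in cerebellum, and the genotypes overlapped for every gene in every region.

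Of the neurofascin and contactin genes, Cntn2 differed most between regions, by 2.53-fold from the highest to the lowest wild-type mean. Its level was 561 ± 74 CPM (SD, n = 7) in cerebellum, 464 ± 50.1 CPM (n = 8) in brainstem, 348 ± 99.3 CPM (n = 8) in striatum and 222 ± 57.6 CPM (n = 7) in cortex. Every pair was called except the neighbours cerebellum and brainstem (log2 difference of brainstem minus cerebellum -0.27, SE 0.13, FDR 0.053). The cortex libraries lay between 138 and 298 CPM and did not overlap those of brainstem (366 to 517 CPM) or cerebellum (458 to 659 CPM). Nfasc followed a different order, with 601 ± 70.1 CPM in brainstem, 501 ± 116 CPM in striatum, 440 ± 26.1 CPM in cerebellum and 393 ± 42.4 CPM in cortex. Cerebellum and cortex, the lowest neighbours, were not distinguished (FDR 0.094). Striatum was called above cerebellum (log2 difference of cerebellum minus striatum -0.19, FDR 0.045), but that call was lost with the mouse as a fixed block (-0.17, FDR 0.11), in 9 of 14 fits that left out 1 mouse (highest FDR 0.26, without mouse 7267059) and without the 3 striatum libraries high in thalamus markers (FDR 0.37). Cntn1 was higher in brainstem (552 ± 46.6 CPM) than in each other region. Cortex (441 ± 70.7 CPM), striatum (414 ± 74.8 CPM) and cerebellum (398 ± 21.8 CPM) were not distinguished from one another. Without the 3 striatum libraries high in thalamus markers, cortex was called above striatum (0.23, FDR 0.027).

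The Caspr genes behaved differently from each other. Cntnap1 was the most even member, at 407 ± 57.7 CPM in cerebellum, 360 ± 22.6 CPM in brainstem, 356 ± 73.2 CPM in striatum and 345 ± 78.3 CPM in cortex, and no pair of regions was called (lowest FDR 0.051, cerebellum against cortex). Under 11 of the 26 alternative settings that last pair was called, always with cerebellum higher. Cntnap2 was higher in brainstem (160 ± 15.5 CPM), striatum (141 ± 19.8 CPM) and cortex (124 ± 28.9 CPM) than in cerebellum (74.8 ± 11.2 CPM). Cerebellum was lower by 1.09 on the log2 scale than brainstem (SE 0.11, FDR 3.4e-21), and its highest library (90.9 CPM) lay under the lowest of brainstem (136 CPM). Striatum was not distinguished from either of its neighbours in this order, brainstem (FDR 0.13) and cortex (FDR 0.18).

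Among the cytoskeletal members, Sptbn4 was lowest in brainstem (266 ± 45.3 CPM) and higher in striatum (390 ± 112 CPM), cerebellum (404 ± 49.8 CPM) and cortex (424 ± 81.5 CPM), which were not distinguished from one another (FDR 0.51 to 0.75). The log2 difference of brainstem minus cortex was -0.67 (SE 0.13, FDR 1.2e-06). With an offset for GC content, which was chosen after seeing the data, it was still called at -0.19, and cerebellum then stood above cortex by 0.37 (FDR 6.5e-07) where the value without the offset was -0.07. The place of Sptbn4 among the 3 upper regions therefore depends on how GC content is treated. Median RIN was also lowest in wild-type brainstem, at 7.3 against 8 in cerebellum, 7.9 in cortex and 7.7 in striatum. Sptbn4 varied with RIN from library to library (r = 0.45). Brainstem was called below each of the 3 other regions under all 26 alternative settings, which include RIN as a covariate. Ank3 was higher in brainstem (428 ± 22.8 CPM) and striatum (396 ± 57.8 CPM) than in cerebellum (337 ± 43.8 CPM) and cortex (320 ± 28 CPM), while brainstem and striatum (FDR 0.19) and cerebellum and cortex (FDR 0.45) were not distinguished. Ank2, the most abundant member by CPM, was higher in cerebellum (874 ± 139 CPM) and brainstem (841 ± 79.1 CPM) than in striatum (662 ± 49.5 CPM), and higher in cerebellum than in cortex (745 ± 80.2 CPM, FDR 0.011). That last call held under 24 of 26 alternative settings (highest FDR 0.061). The call of Ank3 in striatum above cerebellum also held under 24 of 26 (highest FDR 0.091).

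To compare levels between genes, CPM were divided by the length in kb of all exons of a gene joined (CPM per kb). On that scale Cntnap1 was the highest member in each wild-type region, at 61.2 ± 3.82 in brainstem, 69.3 ± 9.81 in cerebellum, 58.6 ± 13.3 in cortex and 60.6 ± 12.5 in striatum. Its partner at the paranode, Cntn1, was at 58.5 ± 4.94, 42.2 ± 2.32, 46.7 ± 7.49 and 43.9 ± 7.91 in the same regions. Cntnap2 was low, between 7.34 ± 1.1 in cerebellum and 15.6 ± 1.51 in brainstem. The ranks rested on the length used. Ank3 in brainstem was at 12.3 over 34.8 kb of joined exons and at 43.0 over its longest transcript of 9.96 kb. With longest transcripts Cntnap1 was not the highest member in any wild-type region. Cntn1 then passed it in brainstem (97.4 against 66.2), cortex (77.7 against 63.4) and striatum (73.1 against 65.5), and Cntn2 did in cerebellum (76.6 against 74.9). The balance between the Caspr genes also shifted by region. Cntnap1 over Cntnap2 per kb was 9.65 ± 2.22 in wild-type cerebellum (7.43 to 13.7, n = 7) and 3.95 ± 0.487 in wild-type brainstem (3.25 to 4.83, n = 8), with no overlap.

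The main question of the design was whether the mutant ataxin-3 changes gene expression in each region. None of the 8 junction genes was called between SCA3 and wild-type mice in any of the 4 regions by edgeR's likelihood ratio test, against 1.92% of all genes in brainstem, 0.0647% in cerebellum, 0.154% in cortex and 7.54% in striatum (0.792% without the 3 wild-type libraries high in thalamus markers). None was called in the test of a genotype effect in any region (4.73% of genes called) or in the test of dependence of that effect on region (0.218%). The quasi-likelihood F test, DESeq2 and limma-voom also called 0 members in all of these tests. At an unadjusted p below 0.05 there were 2 members in brainstem, 0 in cerebellum, 1 in cortex and 1 in striatum, where 13.3%, 1.66%, 4.07% and 23.2% of all genes passed. The median log2 fold change of the members was 0.03 in brainstem, cortex and striatum and -0.03 in cerebellum, and the median of all genes rounded to 0 in each region. The SCA3 and wild-type libraries overlapped for every member in every region, and failed to overlap for 1.38%, 0.234%, 0.251% and 0.655% of all genes.

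**Figure D2:**
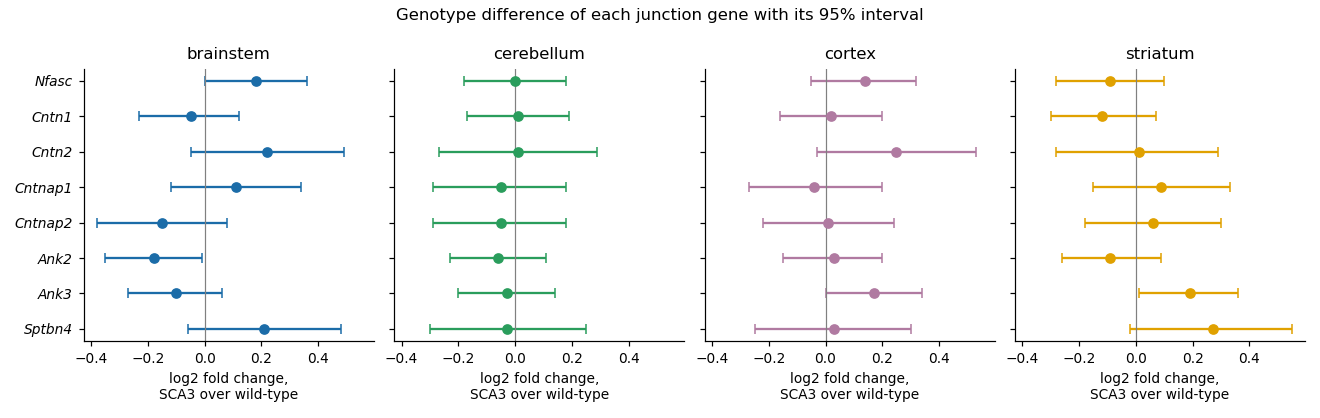
Log2 fold change of SCA3 over wild-type (x axis) for each junction gene (y axis) in each region, with its 95% interval from the edgeR fit. All values lay between -0.18 and 0.27, and the intervals reached from -0.38 to 0.55.

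The intervals say how large a change the data leave room for. The 95% intervals of the 32 fold changes ran from a log2 value of -0.38 (Cntnap2 in brainstem) to 0.55 (Sptbn4 in striatum). For the paranodal genes in cerebellum they ran from -0.18 to 0.18 for Nfasc, -0.17 to 0.19 for Cntn1 and -0.29 to 0.18 for Cntnap1. That a member was not called does not show that its level was equal in both genotypes.

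In brainstem, Nfasc and Cntn2 lay above 0 and Ank2 below it, all without a call. Nfasc was 463, 636 and 661 CPM (lowest, median and highest) in wild-type and 630, 679 and 726 CPM in SCA3 libraries. The groups overlapped, with 5 of 6 SCA3 libraries above the wild-type median (log2 fold change 0.18, SE 0.09, FDR 0.38). Cntn2 was 366, 480 and 517 CPM in wild-type and 505, 538 and 586 CPM in SCA3 libraries, with all 6 SCA3 libraries above the wild-type median (0.22, SE 0.14, FDR 0.5). In a fit of brainstem alone with the thalamus marker score as a covariate, these genes were called (Nfasc 0.22, FDR 0.014, and Cntn2 0.26, FDR 0.0026). Without that covariate, brainstem alone gave FDR 0.28 and 0.11. Ank2 went the other way, at 706, 862 and 933 CPM in wild-type and 622, 759 and 815 CPM in SCA3 libraries, with all 6 SCA3 libraries below the wild-type median (-0.18, SE 0.09, FDR 0.35). How many of all genes have such counts about the wild-type median was not computed, so these counts are description only.

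The other members in brainstem were not called either. Cntnap1 was 320 to 393 CPM in wild-type and 378 to 416 CPM in SCA3 libraries, all 6 above the wild-type median (0.11, SE 0.12, FDR 0.74), and Cntnap2 was 136 to 176 and 129 to 167 CPM (-0.15, SE 0.12, FDR 0.62). The ratio of Cntnap1 to Cntnap2 per kb was 4.72 ± 0.487 in SCA3 (n = 6) and 3.95 ± 0.487 in wild-type brainstem (n = 8), with overlapping ranges, and was not tested. Sptbn4 was 193 to 326 CPM in wild-type and 276 to 340 CPM in SCA3 libraries (0.21, SE 0.14, FDR 0.51). RIN moved with the genotype in brainstem and with Sptbn4 across all libraries (r = 0.45, n = 53). With RIN as a covariate the Sptbn4 value was 0.11, and with the GC offset 0.02.

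In striatum, the cytoskeletal genes of the node had the largest values. Ank3 was 428, 438, 450, 457 and 480 CPM in the 5 SCA3 libraries and 331, 399 and 482 CPM (lowest, median and highest) in the 8 wild-type libraries. All 5 SCA3 libraries lay above the wild-type median, within the wild-type range (0.19, SE 0.09, FDR 0.18). Without the 3 wild-type libraries high in thalamus markers the value was 0.20 (FDR 0.47). Sptbn4 was 372, 472, 481, 489 and 535 CPM in SCA3 and 237, 403 and 529 CPM in wild-type libraries (0.27, SE 0.15, FDR 0.24). Its 3 lowest wild-type values were 237, 271 and 297 CPM, in mice 7267058, 7267059 and 7267055. The library of mouse 7267055 was not among those high in thalamus markers (sum 397 CPM). These were the 3 wild-type mice of 1 series of mouse numbers, whose SCA3 mice 7267054 and 7267056 were at 535 and 481 CPM. Without the libraries high in thalamus markers the Sptbn4 value fell to 0.07 (FDR 0.96). Under the GC offset it was 0.24 and was called (FDR 0.029).

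The values of the adhesion genes in striatum also moved when those libraries were left out. Nfasc was 454, 457, 459, 488 and 494 CPM in SCA3 and 398, 473 and 766 CPM in wild-type libraries (-0.09, SE 0.1, FDR 0.59), the highest being mouse 7267059. Cntn1 was 341, 346, 375, 398 and 449 CPM in SCA3 and 316, 395 and 554 CPM in wild-type libraries (-0.12, SE 0.09, FDR 0.46). Without the libraries high in thalamus markers, Nfasc came to 0.02 and Cntn1 to 0.03, and Cntn2 went from 0.01 to 0.19 (FDR 0.82). Cntnap1 (0.09, SE 0.12), Cntnap2 (0.06, SE 0.12) and Ank2 (-0.09, SE 0.09) lay within about 1 SE of 0.

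Cortex and cerebellum completed the comparison. In cortex, Cntn2 was 138, 217 and 298 CPM in wild-type and 188, 275 and 337 CPM in SCA3 libraries, 5 of 6 above the wild-type median (0.25, SE 0.14, FDR 1). Ank3 in cortex was 272, 321 and 355 CPM in wild-type and 306, 369 and 409 CPM in SCA3 libraries, again with 5 of 6 above the wild-type median (0.17, SE 0.09, FDR 1). The other 6 members in cortex lay between -0.04 and 0.14. Counts about the median did not always follow the fold change. In cortex all 6 SCA3 libraries lay above the wild-type median for Cntn1 (0.02), and 5 of 6 lay below it for Sptbn4 (0.03). In cerebellum, the region with the fewest genes called, all 8 members lay between -0.06 and 0.01. Ank3 had the lowest p of the members in the tests that join the regions (FDR 0.26 for an effect in any region and 0.5 for dependence on region), with values of -0.10 in brainstem, -0.03 in cerebellum, 0.17 in cortex and 0.19 in striatum.

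The partners of the junction genes were examined by place. Of 11 sodium and potassium channel and adhesion genes of the node, 0 were called in any region by edgeR's likelihood ratio test. Their median log2 fold change was -0.05 in brainstem and 0.19 in striatum, or 0.09 in striatum without the 3 wild-type libraries high in thalamus markers. Nrcam, an adhesion molecule of the node, was at 370 CPM in wild-type and 280 CPM in SCA3 brainstem (-0.40, SE 0.15, FDR 0.16). Of the 6 detected matrix genes of the node (7 listed), 1 was higher in striatum: Vcan, a proteoglycan also made by oligodendrocyte precursors, rose from 43.4 ± 7.19 to 57.8 ± 4.47 CPM (0.41, SE 0.12, FDR 0.014). Of the 6 detected genes of the initial segment (8 listed), 0 were called. Of the 10 juxtaparanodal genes, Dlg2, a scaffold protein, rose in striatum from 480 ± 93.9 to 576 ± 21.4 CPM (0.26, SE 0.09, FDR 0.044), and the potassium channel genes Kcna1 and Kcna2 had values of 0.03 and -0.09 there. Neither call held without the 3 wild-type striatum libraries high in thalamus markers (Vcan 0.35, FDR 0.26, and Dlg2 0.09, FDR 0.82).

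Of the 12 paranodal partner genes, 2 were lower in brainstem (1.92% of all genes called) and 3 in striatum (7.54%), none was higher, and none was called in cerebellum or cortex. Ugt8a, which makes galactosylceramide, fell from 244 ± 62.9 to 137 ± 40.6 CPM in brainstem (-0.83, SE 0.19, FDR 0.0035) and from 137 ± 44.4 to 83.7 ± 26.3 CPM in striatum (-0.71, SE 0.20, FDR 0.016). Mal, a proteolipid of myelin, fell by 0.65 (SE 0.18, FDR 0.025) and 0.80 (SE 0.19, FDR 0.0033) in these regions. Fa2h, which hydroxylates the fatty acids of myelin lipids, fell by 0.59 in striatum (SE 0.18, FDR 0.029). Without the 3 wild-type striatum libraries high in thalamus markers 0 of the 12 genes were called in striatum (Ugt8a -0.49, Mal -0.51 and Fa2h -0.44, FDR 0.21 to 0.43), where 0.792% of all genes were then called. In brainstem, with RIN as a covariate, Ugt8a was still called (-0.81, FDR 0.0097) and Mal was not (-0.60, FDR 0.078), while Jam3, a junctional adhesion molecule, was called as higher (0.33, FDR 0.049; 0.30 and FDR 0.058 without the covariate). Other genes of the list that act in oligodendrocytes and myelin were not called: Gal3st1, which makes sulfatide from galactosylceramide, had values of -0.06 in brainstem and -0.25 in striatum, and Mag, a glycoprotein of the inner myelin membrane, -0.04 and -0.22. Nor was Epb41l3, which links Caspr to the cytoskeleton (-0.10 and -0.26), and the spectrins Sptan1 and Sptbn1 lay between -0.11 and 0.10.

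**Figure D3:**
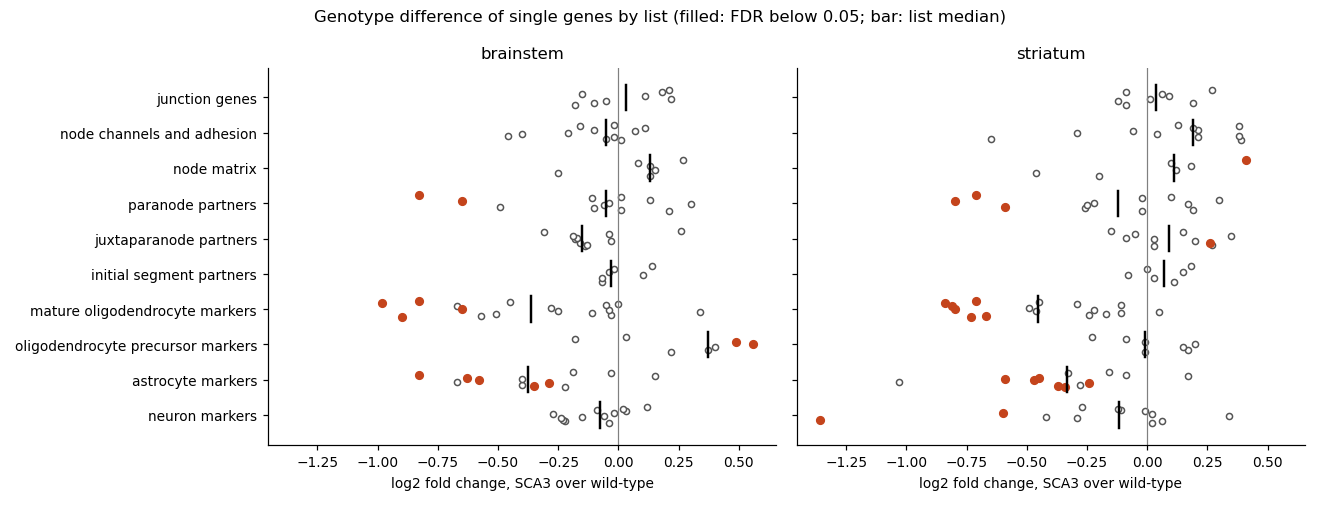
Log2 fold change of SCA3 over wild-type (x axis) of the single genes of each list (y axis) in brainstem and striatum; filled red points have an FDR below 0.05 and black bars are list medians. Called genes on the lower side stood among the paranode partners and the mature oligodendrocyte, astrocyte and neuron markers. On the higher side they were Vcan, Dlg2, Olig1 and Olig2, while no junction gene was called. Without 3 wild-type libraries high in thalamus markers, 0 paranode partners, 0 mature oligodendrocyte markers, 0 neuron markers and 1 astrocyte marker were called in striatum, and Vcan and Dlg2 were not called.

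Cell type markers moved in the same regions, where 1.92% (brainstem) and 7.54% (striatum) of all genes were called. Of 16 mature oligodendrocyte markers, which include Ugt8a and Mal, 4 were lower in brainstem and 6 in striatum, with medians of -0.36 and -0.46. The summed level of these markers was 11700 to 24400 CPM in wild-type and 10700 to 18000 CPM in SCA3 brainstem, and in striatum it was 7430 to 21900 CPM in wild-type and 6890 to 10600 CPM in SCA3 libraries. Of the 7 detected precursor markers, Olig1 and Olig2 rose in brainstem (0.56 and 0.49). The others were not called there, with Pdgfra at -0.18, Sox10 at 0.03, Cspg4 at 0.22, Gpr17 at 0.37 and Neu4 at 0.40. Of 12 astrocyte markers, 5 were lower in brainstem and 6 in striatum, and of 12 neuron markers 2 were lower in striatum (Nefh and Stmn2). Of the 12 microglia markers 1 was lower in brainstem (P2ry12), and 0 of 10 endothelial markers were called. In striatum 7 of 11 thalamus markers were also lower, as were 2 of the 7 detected cerebellum markers (Zic1 -2.17, FDR 0.0043, and Zic2 -2.13, FDR 0.00094). Without the 3 libraries high in those markers, 0 of the 16 mature oligodendrocyte markers (median -0.12), 1 of the 12 astrocyte markers, 0 of the 12 neuron markers and 1 of the 11 thalamus markers were called as lower in striatum, where 0.792% of all genes were called, and Zic2 was still lower (-1.93, FDR 0.025) while Zic1 was not called (-1.88, FDR 0.094). With RIN as a covariate (1.43% of all genes called in brainstem), 3 mature oligodendrocyte and 3 astrocyte markers were lower in brainstem, Olig1 was higher and P2ry12 was not called. The part of these shifts in the values of the junction genes was not tested.

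How the members varied from mouse to mouse was then described, as the deviation of each library's log2 CPM from the mean of its region and genotype (Pearson's r over 53 libraries, in which several libraries share a mouse, and each library shares its depth and base composition across genes). Nfasc and Cntn2, the neighbours on chromosome 1, varied together (r = 0.87). Within single regions r was 0.97 in brainstem (n = 14), 0.90 in cerebellum, 0.91 in cortex and 0.94 in striatum (n = 13 each). It was 0.89 in wild-type and 0.80 in SCA3 libraries, 0.85 without the libraries high in thalamus markers, and 0.87 after the GC offset. Between 0.86 and 0.94 was found within each of the 3 series of mouse numbers. Cntn2 and Ank3 also varied together (r = 0.69), although not in brainstem (r = 0.23).

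Nfasc and Cntn2 followed the mature oligodendrocyte markers in brainstem, cortex and striatum but not in cerebellum. With the mean of these markers, r was 0.91 and 0.90 in brainstem, 0.76 and 0.94 in cortex and 0.87 and 0.98 in striatum for Nfasc and Cntn2, respectively, whereas in cerebellum r was -0.43 and -0.55. Over all 53 libraries r was 0.71 and 0.73. For the other members r with these markers changed from region to region. Ank3 followed them in cortex (0.83) and striatum (0.62) but not in brainstem (0.23) or cerebellum (-0.37). Ank2 had r of 0.77 in brainstem, -0.67 in cerebellum, -0.60 in cortex and 0.04 in striatum. Cntn1 ran from -0.61 in cortex to 0.52 in striatum, Cntnap1 from -0.37 in cerebellum to 0.51 in cortex, Cntnap2 from -0.33 in brainstem to 0.65 in cerebellum and Sptbn4 from -0.64 in cerebellum to 0.25 in cortex. Between genotypes the picture in brainstem was different, since the fold changes of Nfasc and Cntn2 (0.18 and 0.22, not called) had the opposite sign to the median of the oligodendrocyte markers (-0.36).

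**Figure D4:**
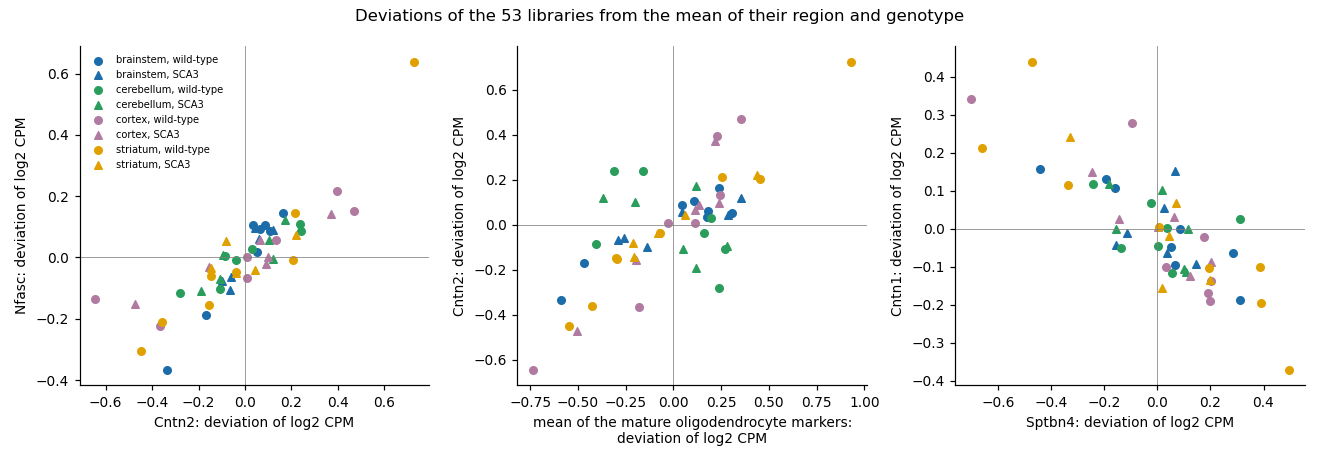
Deviation of log2 CPM from the mean of the region and genotype in the 53 libraries (circles wild-type, triangles SCA3, coloured by region), for Nfasc against Cntn2, Cntn2 against the mean of the mature oligodendrocyte markers, and Cntn1 against Sptbn4. Nfasc and Cntn2 rose together, the cerebellum libraries did not share the relation of Cntn2 to the markers, and Cntn1 and Sptbn4 ran in opposite directions.

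Cntn1 and Sptbn4 ran in opposite directions (r = -0.81), from -0.42 in cerebellum to -0.89 in striatum. Of the members these had the lowest and the highest GC content, and after the GC offset r was -0.38. Cntn1 also followed the thalamus markers (r = 0.62) and Sptbn4 ran against them (r = -0.55). Other marker lists gave values of similar size for Cntn1 and Sptbn4, with r of 0.57 and -0.68 for astrocyte markers and -0.56 and 0.35 for striatal projection neuron markers. Cntnap1 and Sptbn4 varied together before and after the offset (r = 0.65 both times). Outside the members, the genes most like each one by r were Micall1, Fnbp1 and Ankrd40 for Nfasc (0.86 each), Tmem135, Cand1 and Copb2 for Cntn1 (0.87 to 0.90), Sept4, Plekhg3 and Cdc42ep1 for Cntn2 (0.90 to 0.92) and Myo18a, Prkcz and Cacna1i for Cntnap1 (0.83 to 0.90). For Cntnap2 they were Fam120b, Pgm2 and Pcdh11x (0.84 to 0.89), for Ank2 Bace1, Atp2b3 and Dyrk1a (0.76 to 0.81), for Ank3 Ralgapb, Akap10 and LOC100862268 (0.74 to 0.76) and for Sptbn4 Srrm3, Zfp865 and Irf2bpl (0.92 to 0.93). After the GC offset the last fell to 0.71 to 0.78, while those of Cntn2 stayed at 0.90 to 0.91.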

How the data were processed

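Poly-A RNA from 4 brain regions was sequenced as non-stranded paired-end libraries. Per the labels and the study's methods, the authors trimmed reads (cutadapt 1.10), aligned them with STAR 2.3.0e to GRCm38 and assigned them to RefSeq genes by HTSeq 0.6.1, ignoring strand; the deposited table holds raw counts of 12372 genes (lowest mean 4.07 CPM) and was not normalised. Every column was assigned to a sample by its title. Here edgeR 4.0.16 (R 4.3.3) was used with TMM factors: 1 negative binomial fit of all 53 libraries with 8 groups of region and genotype, likelihood ratio tests, Benjamini-Hochberg adjustment over all genes, and calls at FDR below 0.05. Log2 CPM used a prior count of 2, and 95% intervals are normal intervals from the fit's SE. Exon lengths come from GENCODE M21, and 99.62% of genes had a GC value. Wherever mice gave several libraries, the mouse number in the labels paired them across regions (mean r of deviations within a mouse 0.0904 to 0.186); a mouse has 1 genotype, so the genotype comparisons within a region are unpaired, whereas the wild-type regions share mice, and a block for the mouse was an alternative. The fit was tested on simulated data. Limma 3.58.1 (voom) and DESeq2 1.42.0 were alternatives.

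The members and the lists of partner and marker genes were chosen with earlier results of these data known. Genes named are the members, for each the 3 genes of highest r, and partner genes called in at least 1 region (at most 4 a list); other genes of the lists were named as such.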

Additional observations from a re-analysis of the deposited data

Results flagged for a closer look

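In 3 of the 64 groups of a member, region and genotype, 1 library stood apart from the others of its group by a gap large for the group's range (Dixon's criterion), and chance alone would mark about 1 group in 20. Nfasc was 766 CPM in the wild-type striatum library of mouse 7267059, where the nearest library was 544 CPM and the lowest 398 CPM. Cntn2 was 557 CPM in the same library (nearest 391 CPM, lowest 247 CPM), which also had the highest sum of thalamus markers in striatum (2790 CPM). Sptbn4 was 255 CPM in the wild-type cortex library of mouse 7267055, where the nearest was 389 CPM and the highest 478 CPM, at a RIN of 7.7.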

How the results depend on the processing

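The genotype comparisons were recomputed under 28 alternatives, 14 of which left out 1 mouse each, and the wild-type comparisons under 26. No member was called in cerebellum, in cortex or in either test joining the regions under any of them. In brainstem 2 members were called (Nfasc and Cntn2) in the fit of that region with the thalamus marker score as a covariate, and in striatum 1 (Sptbn4, 0.24) with the GC offset; leaving out any single mouse gave 0 calls in each region. With the mouse as a replicate block in limma-voom, 0 members were called in every genotype test, and 5, 7, 5, 4, 4 and 3 in the wild-type pairs in the order given above, against 5, 6, 5, 3, 5 and 3. The mouse as a fixed replicate block gave 5, 6, 5, 3, 4 and 3. Limma-voom without the block called the same members as with it. Against the unpaired edgeR fit, the fixed block changed 1 call, that of Nfasc (striatum above cerebellum, lost). Between wild-type cerebellum and cortex 3 members were called, 6 with the GC offset, 5 without the libraries high in thalamus markers and 2 to 5 when leaving out single mice, with 5 (Nfasc and Cntnap1 added) without mouse 9082857 or mouse 9083373. The sign changed for Cntn1 in striatum, without a call, from -0.12 to 0.05 with the thalamus covariate and 0.03 without the libraries high in those markers, and for Sptbn4 between cerebellum and cortex (0.37 with the GC offset). Sign changes of reported values within 1 SE of 0 that stayed uncalled are not listed. The causes were not tested. The share of all genes called is not given here for the thalamus covariate, the GC offset or the fits without single mice. Nor is it given for the wild-type pairs without libraries high in thalamus markers. The counts of members called under these settings therefore stand without a background. Levels per kb changed by more than the SD in 20 of 32 cases with the longest transcript. The GC offset, the wild-type comparison without libraries high in thalamus markers and the settings for the partner and marker lists were chosen after seeing the data. With 5 to 8 mice a group, the widest 95% interval of a member spanned 0.57 on the log2 scale.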
